A study of Mus musculus with 21 samples.

Results

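Stellate cells and fibroblasts of the liver were represented by 10 marker genes, set among 21887 protein-coding genes of the RefSeq annotation of GRCm38.p6, the assembly that mm10 names. The genes were Lrat, Reln, Hand2, Acta2, Des, Pdgfra, Pdgfrb, Col1a1, Col1a2 and Col3a1. They were chosen by name as markers of these cells. Each gene body was extended by 10 kb on each side to give a window, and every peak of the 11 deposited peak lists that shared at least 1 bp with a window was collected. All 10 genes were found in the annotation.

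Hepatic stellate cells lie between hepatocytes and the sinusoidal endothelium, where they store retinoids. After injury they turn into contractile, collagen-secreting myofibroblasts. Hepatocytes carry their own chromatin programme, in which C/EBPα (CCAAT/enhancer-binding protein alpha) is a main transcription factor. H3K4me2, histone H3 dimethylated at lysine 4, marks active and poised promoters and enhancers, so a peak of it at a stellate gene can come from a stellate cell or from a hepatocyte in which the gene has open chromatin. A bulk peak list does not separate these sources, and fewer cells of a type and less of the mark per cell cannot be told apart.

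Perfused primary hepatocytes were taken from livers of mice of mixed C57/B6 and 129 background at postnatal day 90, and chromatin immunoprecipitation followed by sequencing was done on them. KO mice were Arid1a Fl/Fl; Alb-cre, and WT mice were Arid1a Fl/Fl, so both carried the floxed alleles and WT mice had no Cre. Arid1a encodes a DNA-binding subunit of SWI/SNF, a complex that moves nucleosomes. Cre under the albumin promoter acts in cells of the hepatocyte lineage, so the stellate cells of KO livers are not the target of the deletion. A separate group was V5-Arid1a mice, which carry tagged ARID1A. H3K4me2 was mapped in 3 KO and 3 WT libraries, C/EBPα in 2 KO and 2 WT libraries and the V5 tag in 1 library. The other 10 of the 21 samples are inputs, which were not used here.

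The H3K4me2 lists differed widely in size. They held 24908, 54544 and 175797 peaks in KO libraries 1, 2 and 3, and 34849, 61246 and 49802 in WT libraries 1, 2 and 3. KO list 3 stood apart: its median peak width was 429 bp, against 634 to 918 bp in the other 5 lists, and its median −log10 q was 1.14, against 2.42 to 4.75. For C/EBPα there were 16178 and 17781 peaks in KO and 17733 and 23646 in WT, and for V5-Arid1a there were 5726. As a check of the labelled cell type, 12 hepatocyte genes were read, Alb among them. Each had an H3K4me2 peak within 1 kb of a gene end or start in all 6 lists. Of all protein-coding genes, 53.2% did.

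**Figure D1:**
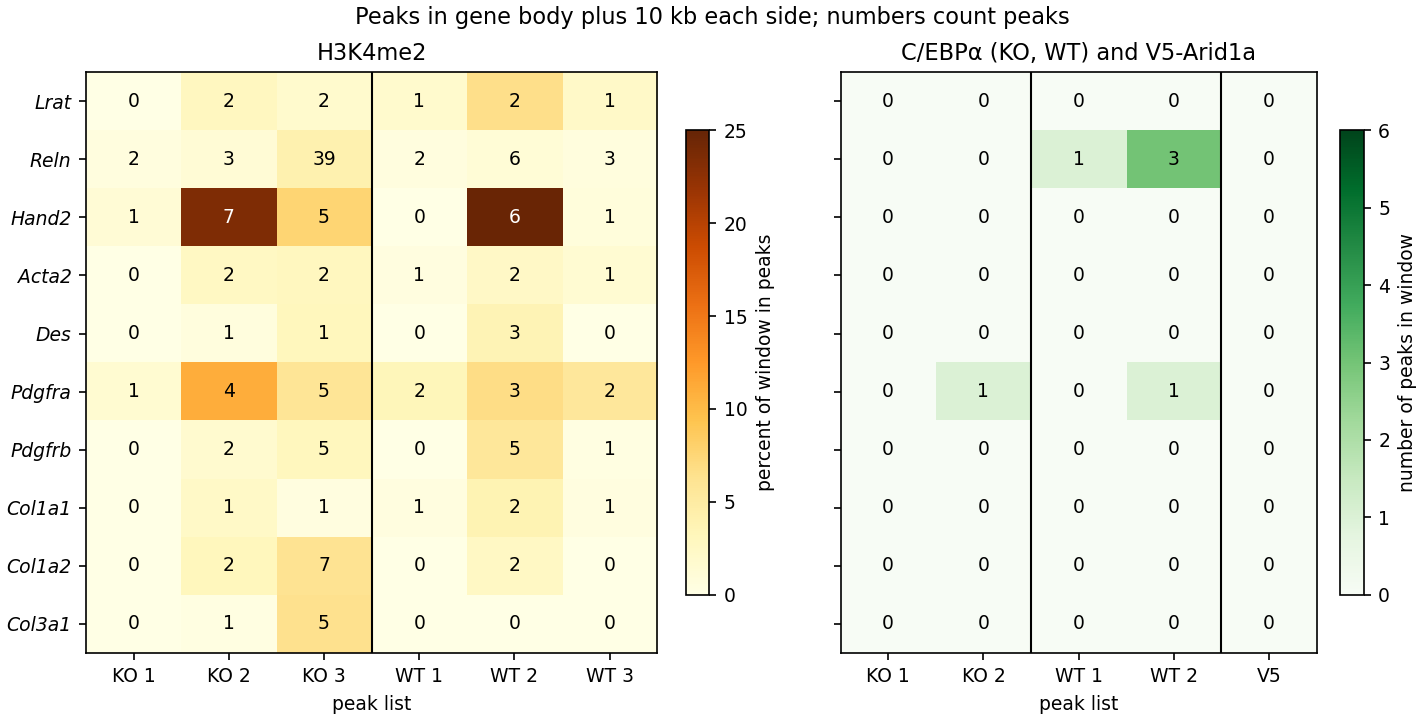
Number of peaks (printed) in the window of each marker gene (rows) in each list (columns, KO left of WT); in the left panel colour is the percent of the window lying in H3K4me2 peaks, and in the right panel colour is the number of C/EBPα or V5-Arid1a peaks. Reln and Pdgfra have H3K4me2 peaks in all 6 lists, both lists numbered 2 are the fullest for Hand2, and 8 of the 10 genes have no C/EBPα peak in any list.

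Lrat and Reln are genes of the resting stellate cell. Lrat encodes lecithin retinol acyltransferase, which makes the retinyl esters that stellate cells store, and Reln encodes reelin, a secreted glycoprotein. The 250 bases before each start are shown because these starts were the best marked of the 8 that the RefSeq promoter table holds. The sequences are from RefSeq on GRCm38.p6 and read 5′ to 3′ on the minus strand, with each CG dinucleotide (CpG) in capitals. The Lrat bases lie at chr3:82903975-82904224 and the Reln bases at chr5:22344706-22344955.
Lrat: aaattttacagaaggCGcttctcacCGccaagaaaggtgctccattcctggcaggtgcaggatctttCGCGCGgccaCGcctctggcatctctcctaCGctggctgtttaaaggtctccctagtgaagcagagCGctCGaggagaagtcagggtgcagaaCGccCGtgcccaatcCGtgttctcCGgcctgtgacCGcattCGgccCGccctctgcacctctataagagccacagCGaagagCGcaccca
Reln: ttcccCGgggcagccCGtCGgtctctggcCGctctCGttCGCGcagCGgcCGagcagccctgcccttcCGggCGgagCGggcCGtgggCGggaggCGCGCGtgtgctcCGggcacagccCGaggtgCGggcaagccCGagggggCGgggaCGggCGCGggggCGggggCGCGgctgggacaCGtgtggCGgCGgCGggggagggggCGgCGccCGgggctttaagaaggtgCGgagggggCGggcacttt
The Lrat bases hold 18 CpG, 0.831 of the number expected from their C and G content, and the Reln bases hold 37, or 0.987 of expected.

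Lrat (chr3:82892582-82903974) had 0, 870 and 562 bp of its window in H3K4me2 peaks in KO libraries 1, 2 and 3, and 568, 2073 and 705 bp in WT libraries 1, 2 and 3. A region over the start, chr3:82903602-82904421, had a peak in KO library 2 and in all 3 WT libraries. WT library 2 had the highest coverage and KO library 1 had none, and the ranges of the genotypes overlapped. The peaks of KO library 3 lay elsewhere, at -6458 and at 5540 bp from the start. The mark at the start was strongest in WT library 2, at percentile 73.2 of −log10 q within its list, and in WT library 1 it stood at percentile 1.87.

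Reln (chr5:21884454-22344705) is the longest of the genes, and its window makes up 54.8% of the bases in all 10 windows. Peaks covered 2639, 5663 and 19319 bp of it in KO libraries 1, 2 and 3, and 2668, 5458 and 2928 bp in WT libraries 1, 2 and 3. KO library 3 was the highest and had 39 peaks there, against 2 and 3 in the other KO lists and 2, 6 and 3 in the WT lists. Only 3 merged regions of this gene were in more than 1 list. A region over the start, chr5:22342239-22346141, had a peak in all 6 lists. This start peak was at percentiles 77.1, 82.9 and 96.4 of −log10 q within the KO lists and 88.3, 90.5 and 98.1 within the WT lists, so it ranked high in every list. A region inside the gene, chr5:22106974-22108465, lying 236240 to 237731 bp from the start, was also in all 6 lists.

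Hand2 encodes a basic helix-loop-helix transcription factor of mesenchymal development. Its 250 bases (chr8:57320733-57320982, plus strand, CpG in capitals) are shown for a contrast with Reln. Their ratio of observed to expected CpG is close to that of Reln, while the start was marked in 1 list. The number of CpG is lower, at 15 against 37, and so is the share of C and G, at 49.2% against 80%.
Hand2: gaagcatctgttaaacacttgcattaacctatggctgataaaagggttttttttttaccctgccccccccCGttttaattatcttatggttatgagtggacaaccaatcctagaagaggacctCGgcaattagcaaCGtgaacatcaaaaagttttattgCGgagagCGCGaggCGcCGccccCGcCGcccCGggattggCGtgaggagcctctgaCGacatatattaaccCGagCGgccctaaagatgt
They hold 15 CpG, or 0.993 of expected. In the window of Hand2 (chr8:57320983-57324517), peaks covered 279, 5529 and 1810 bp in KO libraries 1, 2 and 3, and 0, 5821 and 165 bp in WT libraries 1, 2 and 3. KO library 2 and WT library 2 were close to each other, at 23.5% and 24.7% of the window, and each was above every other library of its genotype. The peaks were spread along the window: regions at -8837 to -6922 bp and at -5292 to -3629 bp from the start were in both lists numbered 2 and in no other list. The start itself was in KO list 2 alone, at percentile 12.6 of that list. WT list 1 had no peak in the window, and KO list 1 had 1 peak, at percentile 1.60.

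Acta2 encodes smooth muscle actin, the usual marker of activated stellate cells and myofibroblasts, and Des encodes desmin, an intermediate filament protein of stellate and muscle cells. The Acta2 bases are shown as an example of a CpG-poor start (chr19:34255374-34255623, minus strand, CpG in capitals).
Acta2: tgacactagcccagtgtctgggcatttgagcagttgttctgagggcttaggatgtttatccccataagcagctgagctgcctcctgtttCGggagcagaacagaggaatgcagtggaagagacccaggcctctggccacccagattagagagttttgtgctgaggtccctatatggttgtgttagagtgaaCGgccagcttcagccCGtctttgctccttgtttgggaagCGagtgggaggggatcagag
They hold 4 CpG, or 0.231 of expected. Acta2 (chr19:34240336-34255585) had 0, 911 and 1022 bp of its window in peaks in KO libraries 1, 2 and 3, and 158, 850 and 506 bp in WT libraries 1, 2 and 3. The genotypes overlapped, and KO library 1 was the only one with no peak. A region 10816 to 11683 bp into the gene, chr19:34243690-34244557, was in KO list 2 and in all 3 WT lists, and one 567 to 1233 bp past the start was in both lists numbered 2. Stambpl1, which adjoins Acta2, lies partly in this window.

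Des (chr1:75360292-75368579) had 0, 188 and 863 bp of its window in peaks in KO libraries 1, 2 and 3, and 0, 1034 and 0 bp in WT libraries 1, 2 and 3. It was among the weakest of the genes: its 5 peaks lay at or below percentile 27.1 of their lists, no region was in more than 1 list, and the neighbouring gene Speg shares the window.

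Pdgfrb and Pdgfra encode the receptors for platelet-derived growth factor, of which the beta receptor drives division of stellate cells. Pdgfrb (chr18:61045127-61085067) had 0, 1019 and 1799 bp of its window in peaks in KO libraries 1, 2 and 3, and 0, 3360 and 196 bp in WT libraries 1, 2 and 3. No peak lay within 1 kb of a gene end in any list. One region in the gene body was in both lists numbered 2, in KO list 3 and in WT list 3, and another was in both lists numbered 2 alone. Both libraries numbered 1 lacked peaks there, and WT library 2 was the highest. The neighbours Cdx1 and Gm52351 lie partly in the window.

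Pdgfra (chr5:75151322-75198206) had 1003, 7363 and 3953 bp of its window in peaks in KO libraries 1, 2 and 3, and 2217, 4557 and 3712 bp in WT libraries 1, 2 and 3. Both extremes were KO libraries, so the genotypes overlapped. All 6 lists met in the merged region chr5:75152434-75157283, from 183 to 5032 bp past the start. The lists did not share all of it: KO library 1 had only 1003 bp, in the part farthest from the start. A region at -9345 to -8807 bp from the start was in both lists numbered 2 and in no other.

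Col1a1 and Col1a2 encode the chains of type I collagen, and Col3a1 encodes type III collagen, the main fibrillar collagens of liver scars. The 250 bases before Col1a2 (chr6:4505368-4505617) and Col3a1 (chr1:45311288-45311537), both on the plus strand, are shown because the start of Col1a2 was marked in 2 lists and that of Col3a1 in none (CpG in capitals).
Col1a2: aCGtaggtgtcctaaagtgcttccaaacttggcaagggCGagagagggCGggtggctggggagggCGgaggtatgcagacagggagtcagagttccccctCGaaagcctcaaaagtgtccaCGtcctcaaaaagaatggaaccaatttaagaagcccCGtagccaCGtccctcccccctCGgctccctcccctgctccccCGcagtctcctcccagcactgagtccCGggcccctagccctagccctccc
Col3a1: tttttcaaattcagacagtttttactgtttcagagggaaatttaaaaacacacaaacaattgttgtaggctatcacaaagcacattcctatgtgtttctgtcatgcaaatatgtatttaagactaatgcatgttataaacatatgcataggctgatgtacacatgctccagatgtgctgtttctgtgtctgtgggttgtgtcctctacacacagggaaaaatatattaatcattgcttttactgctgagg
The Col1a2 bases hold 11 CpG, or 0.466 of expected, and the Col3a1 bases hold 0.

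Col1a1 (chr11:94936224-94953042) had 0, 854 and 168 bp of its window in peaks in KO libraries 1, 2 and 3, and 177, 1369 and 152 bp in WT libraries 1, 2 and 3. One region near the lower end of the gene, chr11:94936664-94937761, was in every list but KO list 1. It stood at percentiles 70.9 and 96.6 in KO lists 2 and 3 and 48.9, 61.6 and 64.1 in WT lists 1, 2 and 3. Sgca lies partly in the window.

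Col1a2 (chr6:4505618-4541543) had 0, 1737 and 3493 bp of its window in peaks in KO libraries 1, 2 and 3, and 0, 1380 and 0 bp in WT libraries 1, 2 and 3. The start region, chr6:4505457-4506852, was in both lists numbered 2 and in no other. KO library 3 had 7 peaks in the window, none of them at the start. Col3a1 (chr1:45311538-45349706) had 0, 208 and 3706 bp in KO libraries 1, 2 and 3, and no peak in any of the 3 WT libraries. Its KO list 2 peak, chr1:45313845-45314052, was at percentile 61.9 and lay 2307 to 2514 bp past the start, and no region of this gene was in more than 1 list. KO library 1 matched the WT libraries at 0, so the genotypes overlapped here too.

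**Figure D2:**
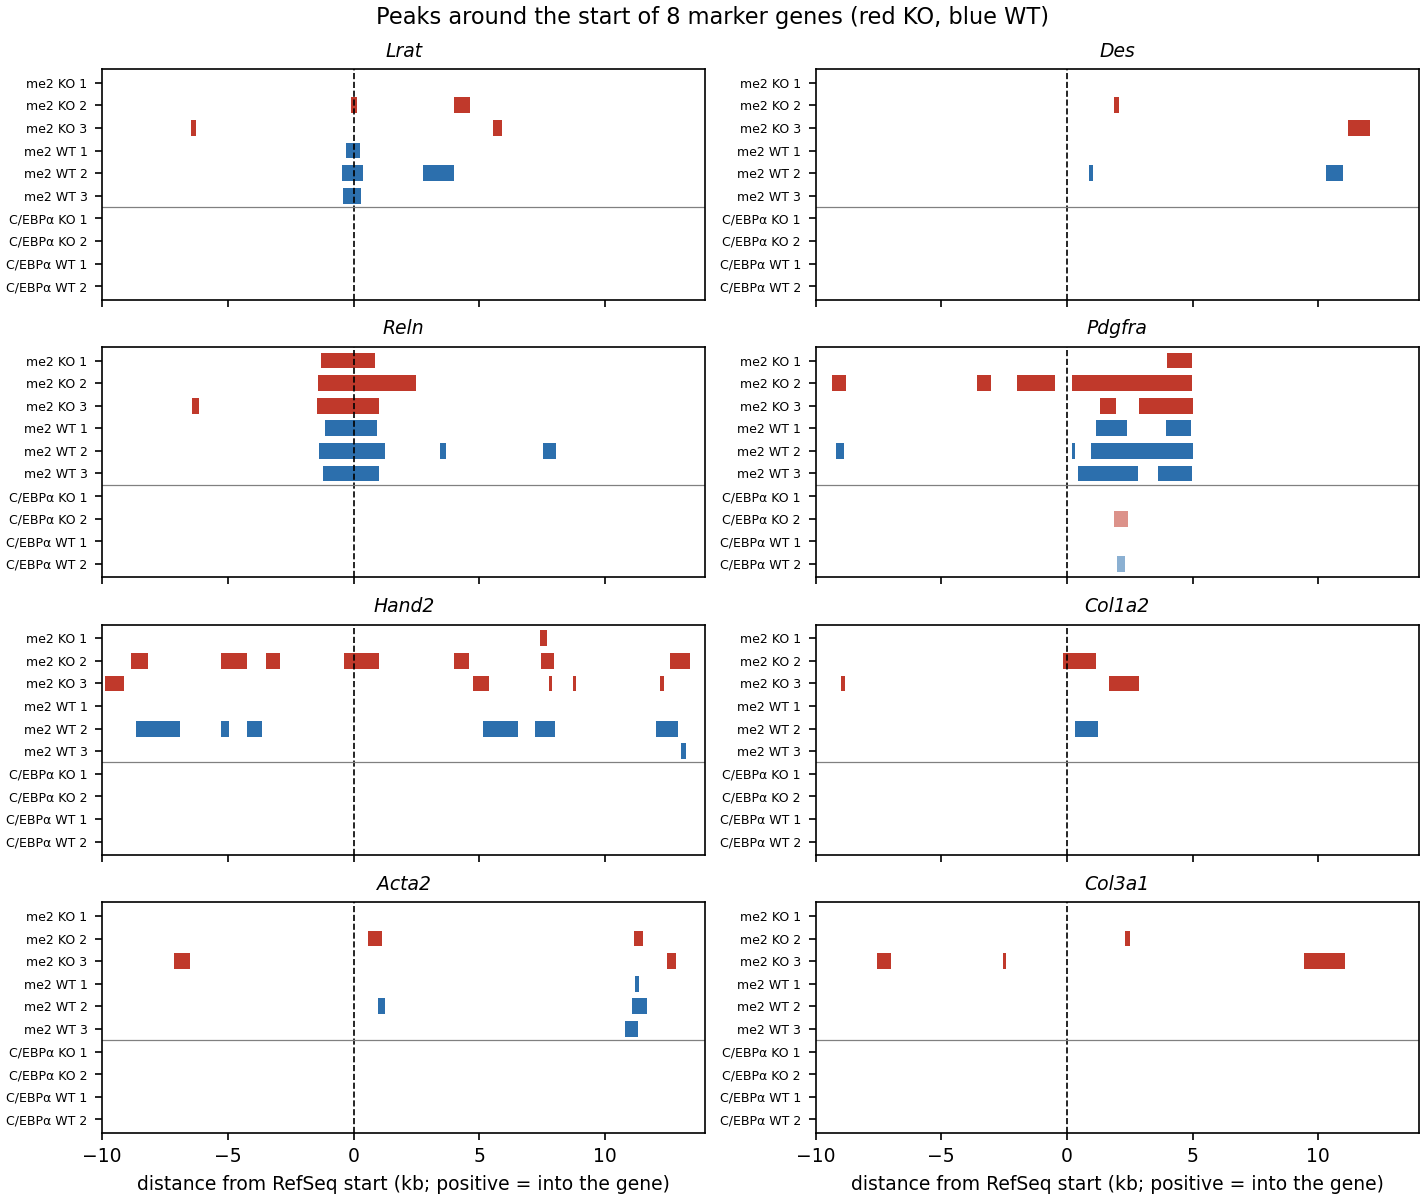
H3K4me2 (upper 6 rows, marked me2) and C/EBPα peaks (lower 4 rows) of KO (red) and WT (blue) libraries, against distance in kb from the RefSeq start of the 8 genes with a start in the promoter table; bars span peaks. The start of Reln has an H3K4me2 peak in all 6 lists, the start of Lrat in 4, and Col3a1 in none, while C/EBPα peaks in this range are at Pdgfra alone.

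The labels set KO against WT hepatocytes, and the marker genes were compared between them with 1 value per library. KO libraries 1, 2 and 3 had an H3K4me2 peak in 3, 10 and 10 of the 10 windows, and WT libraries 1, 2 and 3 in 5, 9 and 7. Over all protein-coding genes, 64.8%, 76.3% and 89.8% of windows had a peak in KO lists 1, 2 and 3, and 69.9%, 77.1% and 72.2% in WT lists 1, 2 and 3. The means were 7.67 ± 4.04 windows in KO and 7 ± 2 in WT (SD, n = 3 each), a difference of 0.667 with an exact two-sided permutation p of 0.8. With 3 against 3 libraries the smallest p is 0.1, so no such test can pass 0.05. The difference lay within the spread between libraries of 1 genotype, and its direction turned when 1 library was left out: it was -0.5 without KO library 2 or KO library 3 and -0.33 without WT library 1.

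Peaks covered 0.447%, 2.78% and 4.19% of the bases of the 10 windows in KO libraries 1, 2 and 3, and 0.660%, 2.96% and 0.954% in WT libraries 1, 2 and 3. The means of 2.47 ± 1.89% in KO and 1.52 ± 1.25% in WT (SD, n = 3 each) differed by 0.947 percentage points (exact permutation p = 0.7). Without KO library 3, which had 39 of its 72 window peaks at Reln, the difference was 0.0890 percentage points. Relative to the coverage of all protein-coding windows in the same list, the log2 ratio was -2.52, -1.32 and -0.58 in KO libraries 1, 2 and 3, and -2.64, -1.30 and -2.16 in WT libraries 1, 2 and 3. The windows of the marker genes were therefore less covered than those of genes in general in all 6 lists. The log2 ratio averaged -1.48 ± 0.98 in KO and -2.03 ± 0.68 in WT (SD, n = 3 each), a difference of 0.56 (exact permutation p = 0.5), or 0.11 without KO library 3. Without Reln the differences were 0.701 percentage points and 0.15 on the log2 scale.

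Within 1 kb of a gene end, or of the start where the promoter table gives one, 1, 7 and 3 genes had a peak in KO libraries 1, 2 and 3, and 3, 7 and 4 in WT libraries 1, 2 and 3. Over all protein-coding genes the shares were 54.8%, 66.8% and 67.5% in KO lists 1, 2 and 3, and 59.2%, 67.3% and 59.2% in WT lists 1, 2 and 3. The means of 3.67 ± 3.06 genes in KO and 4.67 ± 2.08 in WT (SD, n = 3 each) differed by -1 (exact permutation p = 0.8). Without KO library 1 the difference was 0.33, and without WT library 2 it was 0.167.

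Gene by gene, no marker gene had all 3 KO libraries above all 3 WT libraries in covered bases, which 0.105% of 19973 genes with a peak did, and none had all 3 WT libraries above all 3 KO libraries, which 0.906% did. No gene had a window peak in every WT library and none in KO (0.0137% of all genes) or the reverse (0.0228%). The same held at gene ends and starts (0.0822% and 0.00914%). At background shares this low, 0 of 10 genes says little about the marker genes. In all 6 lists, 2 of the 10 windows had a peak (Reln and Pdgfra), against 63.6% of all windows. Without KO library 1, the number of windows marked in every list was 5. At a gene end or start 1 of the 10 (Reln) had a peak in all 6 lists, against 53.2% of all genes.

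Both lists numbered 2 had a gene-end or start peak at 6 of the 10 genes, a share near the 65.2% of all genes where both had one. At Acta2 and Col1a2 they were the only lists with such a peak, a pattern found at 2.81% of all genes. KO list 3 was the only one with such a peak at 0 of the 10 genes and at 5.79% of all genes. Of the 98 merged regions in the windows, 18 were in both lists numbered 2. Of those, 7 were in no other list, which is 7.14% of the regions, against 4.47% of the regions in all protein-coding windows. Another 17 regions (17.3%, against 11.1%) were in 1 list numbered 2 alone. KO list 3 alone held 61 regions (62.2%, against 52.8%), of which 36 were at Reln. No region was common to the 3 KO lists while missing from WT, or the other way round, and 3 regions (3.06%, against 11.4%) were in all 6. The labels do not say what a replicate number stands for, and this reading by number was made after the values were seen.

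**Figure D3:**
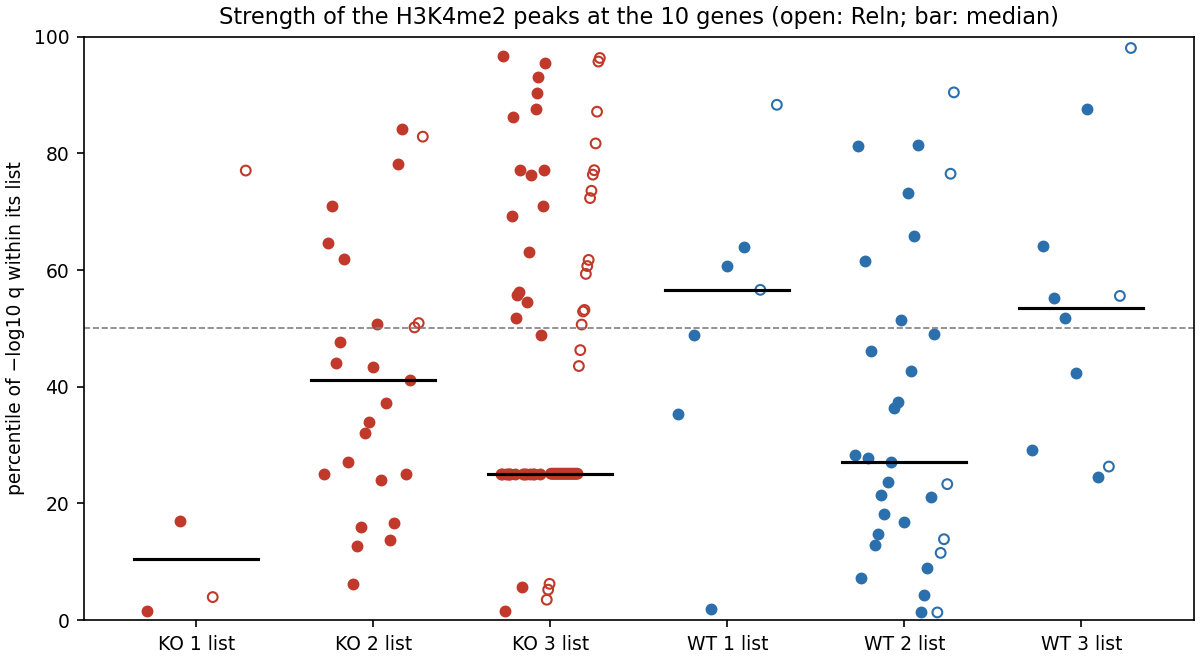
Percentile of −log10 q within its own list (vertical axis) for each H3K4me2 peak in the 10 windows, by list (KO red, left; WT blue, right); open points are Reln peaks and bars are medians. The medians are 10.5, 41.2 and 25.1 in KO lists 1, 2 and 3 and 56.6, 27.2 and 53.5 in WT lists 1, 2 and 3. In KO lists 1, 2 and 3 and in WT list 2, most of the peaks lie below the middle of their list.

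How strong the peaks were also differed by list. The windows held 4, 25 and 72 peaks in KO lists 1, 2 and 3, and 7, 31 and 10 in WT lists 1, 2 and 3. Of these, 1, 9 and 30 were at or above the median −log10 q of their own KO list, and 4, 8 and 6 of their own WT list. When the same number of strongest peaks, 24908, was taken from every list, 3, 5 and 5 genes kept a window peak in KO libraries 1, 2 and 3, and 4, 5 and 5 in WT libraries 1, 2 and 3. The same peaks marked 64.8%, 69.7% and 60.3% of all windows in KO lists 1, 2 and 3, and 67.0%, 68.4% and 65.6% in WT lists 1, 2 and 3. Reln and Pdgfra had such a peak in all 6 lists, and Col1a1 had one in every list but KO list 1. With only peaks at or above the pooled median −log10 q of 1.88, KO library 2 and WT library 2 had 10 and 9 genes with a peak, against 1 and 4 in KO libraries 1 and 3 and 4 and 6 in WT libraries 1 and 3. Of all windows these peaks marked 61.5%, 75.4% and 55.9% in KO lists 1, 2 and 3, and 68.8%, 75.1% and 69.6% in WT lists 1, 2 and 3.

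H3K4me2 at gene starts went with CpG content, and the 8 genes with a promoter entry were read against it. Among all 17492 promoters, a peak within 1 kb of the start was in all 6 lists for 89.1% of those with a CpG ratio of 0.8 or more and for 7.94% of those below 0.2. Reln (6 lists), Lrat (4 lists, KO library 2 and the 3 WT libraries) and Hand2 (1 list, KO library 2) were in the highest class. In that class 3.37% of promoters were marked in at most 1 list and 8.54% in at most 4. Col1a2 was marked in 2 lists, where the mean of its class was 4.01. Pdgfra and Acta2, with 3 and 2 lists, and Des, with 1, were in a class with a mean of 2.05, and Col3a1, with no CpG and no list, was in a class of which 70.5% had no list.

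**Figure D4:**
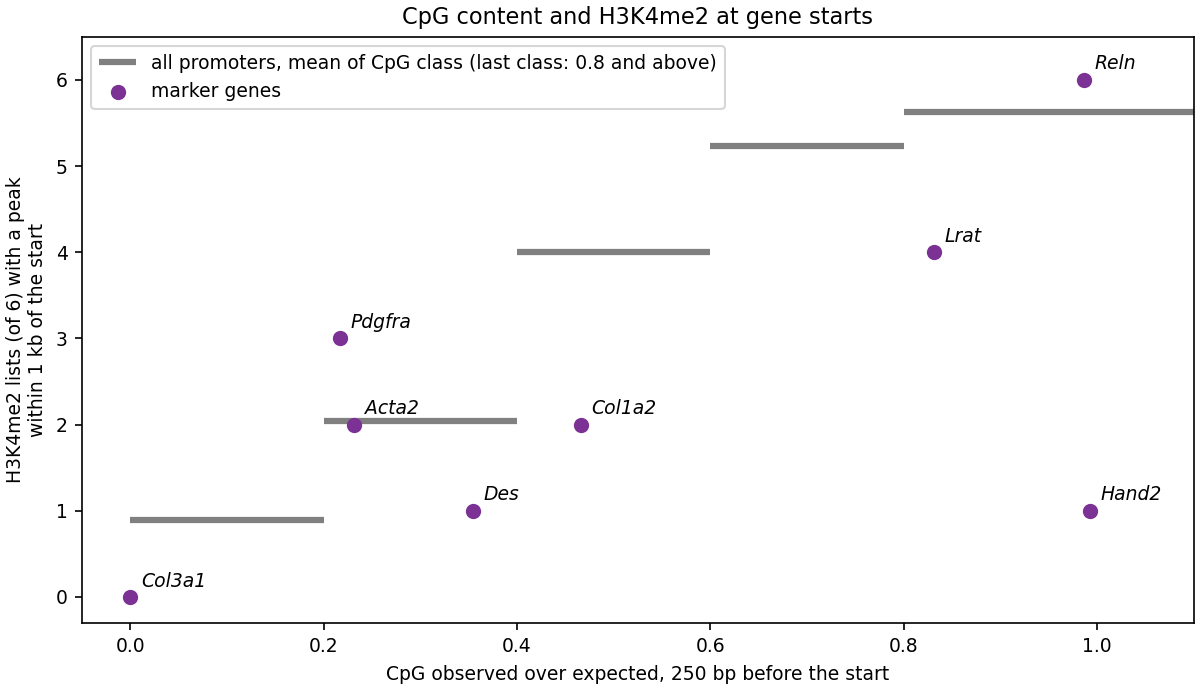
Number of H3K4me2 lists (of 6) with a peak within 1 kb of the start, against the observed over expected CpG ratio of the 250 bp before it; points are the 8 marker genes and grey bars the mean over all promoters of each CpG class. Reln, at 6 lists, is above the mean of 5.63 of its class, Lrat at 4 and Hand2 at 1 are below it.

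C/EBPα peaks were few at the marker genes. A peak lay in 0 and 1 of the 10 windows in KO libraries 1 and 2, and in 1 and 2 in WT libraries 1 and 2, where 37.1% and 38.6% of all windows had one in KO and 36.2% and 43.3% in WT. In at least 1 of the 4 lists 2 of the 10 had a peak, against 47.6% of all genes, and in all 4 lists 0 did, against 30.3%. Lrat, Hand2, Acta2, Des, Pdgfrb, Col1a1, Col1a2 and Col3a1 had none in any list. No C/EBPα peak lay at a gene end or start of the 10.

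Reln and Pdgfra held the 6 C/EBPα peaks. Reln had 0 and 0 peaks in KO libraries 1 and 2, and 1 and 3 in WT libraries 1 and 2. The WT library 1 peak, chr5:22107123-22107433, and the WT library 2 peak chr5:22107086-22107450 overlap, and both lie in the region inside the gene that had H3K4me2 in all 6 lists. Their widths were at percentiles 15.1 and 44.1 of their lists. The other peaks of WT library 2, at chr5:21896760-21897118 and chr5:21919276-21919545, met no H3K4me2 peak. Reln was thus the 1 gene of 10 that had a peak in each WT library and in neither KO library, which 3.03% of all genes had. No gene had the reverse, which 1.25% of all genes did.

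Pdgfra had 0 and 1 C/EBPα peaks in KO libraries 1 and 2, and 0 and 1 in WT libraries 1 and 2. The KO library 2 peak, chr5:75154123-75154687, was at percentile 81.5 of width and overlapped H3K4me2 peaks of 5 lists, all but KO list 1. The WT library 2 peak, chr5:75154243-75154551, was at percentile 20.5 and overlapped H3K4me2 peaks of 4 lists, KO list 2 and the 3 WT lists. Both lay past the start, and both came from the C/EBPα libraries numbered 2. The labels do not tie these numbers to those of the H3K4me2 libraries. In all, the windows held 0 and 1 peaks in the KO libraries and 1 and 4 in the WT libraries, with means of 0.5 ± 0.707 and 2.5 ± 2.12 (SD, n = 2 each). The difference of -2 had an exact permutation p of 0.667, in a design of 2 against 2 libraries that cannot reach 0.05. It rested on Reln: without that gene the difference was 0, and without WT library 2 it was -0.5.

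The core of the C/EBP site was also looked for in the 250 bases before the start. TTGCNNAA, on either strand, was found before Pdgfra and not before the other 7 genes, and 9.11% of all 17492 promoters hold it. V5-Arid1a had no peak in any of the 10 windows in its 1 library, against 14.7% of all windows. At that share, 0 of 10 does not set the marker genes apart.

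The marks of other cell types were read in the same lists, to place the marker genes among them. A wider list of 26 stellate and fibroblast genes had a gene-end or start peak at 3, 20 and 10 genes in KO libraries 1, 2 and 3, and at 5, 20 and 8 in WT libraries 1, 2 and 3. Of 12 endothelial genes, 2, 11 and 5 had one in KO libraries 1, 2 and 3, and 4, 11 and 4 in WT libraries 1, 2 and 3. The lists numbered 2 were the highest of their genotype for the marker genes, the wider stellate list and the endothelial list. The same held for the 12 genes that process collagen. Over all genes the shares were 54.8%, 66.8% and 67.5% in KO lists 1, 2 and 3. In WT lists 1, 2 and 3 they were 59.2%, 67.3% and 59.2%, so WT list 2 was the highest there too. The lists numbered 2 alone had such a peak at 8 of the 26 wider stellate genes and at 6 of the 12 endothelial genes. Over all genes this pattern was found at 2.81%. It was at 0 of 12 Kupffer cell and leukocyte genes, 0 of 8 biliary genes and 0 of 12 hepatocyte genes. Among genes of other tissues it was at 1 of 12 developmental regulators and 0 of 12 terminal genes. It was at 2 of 12 genes that process collagen and at 0 of 14 genes of PDGF and TGFβ signalling.

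Of 12 Kupffer cell and leukocyte genes, a peak was at 2, 4 and 6 in KO libraries 1, 2 and 3, and at 1, 3 and 1 in WT libraries 1, 2 and 3, so that KO library 3 and WT library 2 were the highest of their genotype. Of 8 biliary genes, 2, 4 and 5 had a peak in KO libraries 1, 2 and 3, and 4, 5 and 5 in WT libraries 1, 2 and 3. Genes of other tissues were counted as a further level to set this against. Of 12 regulators of other tissues, 0, 3 and 6 had a peak in KO libraries 1, 2 and 3, and 1, 4 and 2 in WT libraries 1, 2 and 3. Of 12 terminal genes of other tissues, 4, 5 and 5 had one in KO libraries 1, 2 and 3, and 5, 5 and 4 in WT libraries 1, 2 and 3. The 12 hepatocyte genes had 12 in each list. No gene-end or start peak was in any list at 6 of the 12 Kupffer cell and leukocyte genes: Clec4f, Csf1r, Marco, Timd4, Vsig4 and Cd5l. The same held for Erg among the endothelial genes and Krt7 among the biliary genes. Of all 21887 genes, 5412 had none, as did 3 of the 12 regulators and 6 of the 12 terminal genes of other tissues. Other leukocyte genes were marked: Spi1 had such a peak in all 6 lists and Cd68 in 4. The remaining genes of that set had one in only 1 to 3 lists. Window peaks at the unmarked genes ranged from 0 lists at Krt7 to 6 at Erg. Whether non-hepatocyte cells in the preparation played a part in the values of the lists numbered 2 was not tested.

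**Figure D5:**
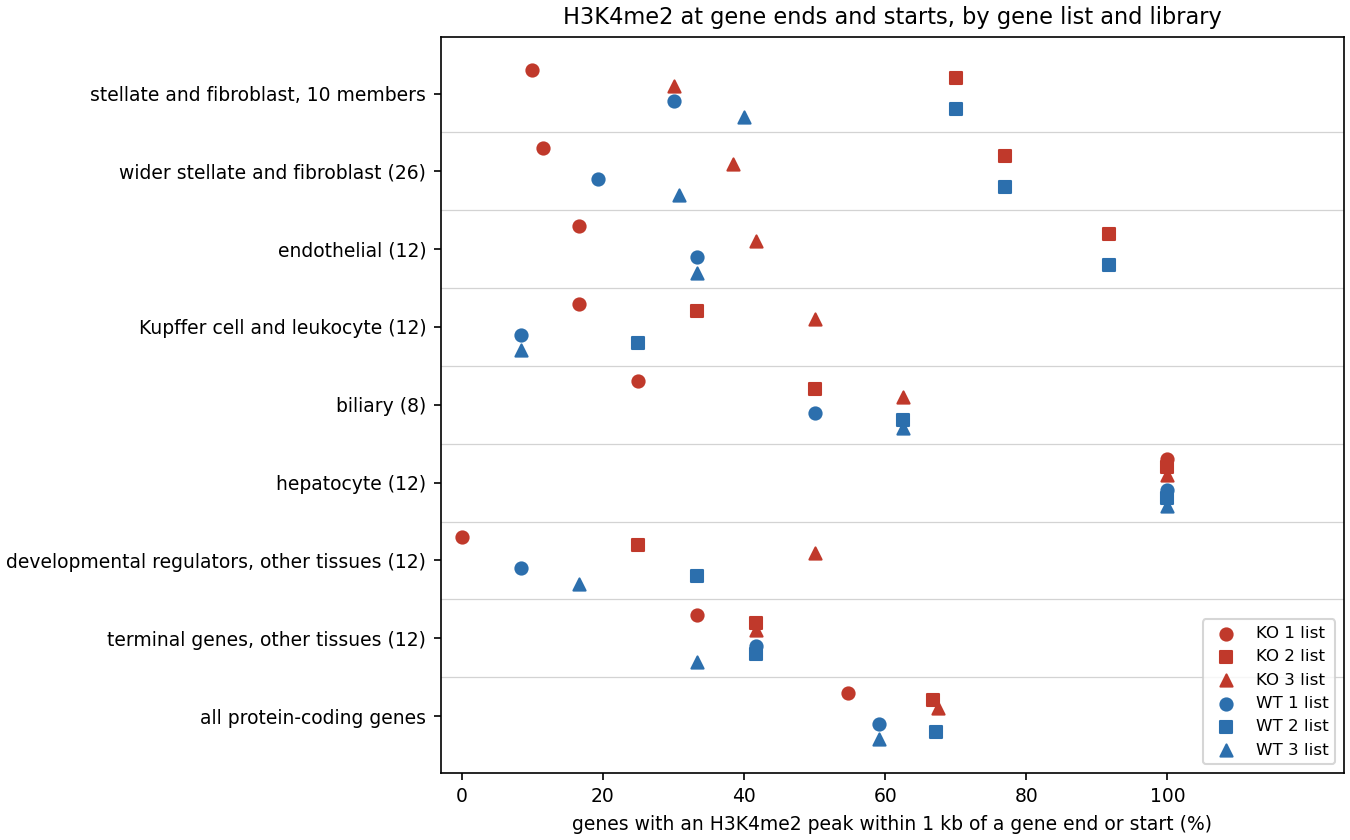
Percent of the genes of each list (rows, with the number of genes) that have an H3K4me2 peak within 1 kb of a gene end or start, in each library (KO red, above; WT blue, below; circle, square and triangle for numbers 1, 2 and 3). For the 10 marker genes, the wider stellate list and the endothelial list the squares of KO and WT library 2 lie to the right of every other library of their genotype.

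In coverage of the marker gene windows, KO library 3 was above KO library 2, as given earlier. As a log2 ratio to all protein-coding windows of the same list, coverage of the wider stellate windows was -0.85, 0.70 and -0.20 in KO libraries 1, 2 and 3, and -0.52, 0.63 and -0.36 in WT libraries 1, 2 and 3. For endothelial windows the ratio was -2.22, 0.43 and -0.78 in KO libraries 1, 2 and 3, and -1.90, 0.13 and -2.03 in WT libraries 1, 2 and 3. Both lists numbered 2 were thus above the general level for these gene sets, and every other library was below it. For Kupffer cell and leukocyte windows the ratio was below 0 in all 6 lists, at -1.86, -0.50 and -1.04 in KO libraries 1, 2 and 3, and -2.21, -0.71 and -2.14 in WT libraries 1, 2 and 3. For the windows of regulators of other tissues it was also below 0, at -3.53, -0.75 and -0.93 in KO libraries 1, 2 and 3, and -0.96, -0.49 and -0.93 in WT libraries 1, 2 and 3. In both of these gene sets, as in the wider stellate and endothelial sets, the libraries numbered 2 had the highest ratio of their genotype. For hepatocyte windows it was 2.86, 2.51 and 1.94 in KO libraries 1, 2 and 3, and 2.84, 2.51 and 2.67 in WT libraries 1, 2 and 3.

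Of the 26 wider stellate genes, 5 had no gene-end or start peak in any list: Rgs5, a pericyte gene, Colec11, Gfap, Tagln and Timp1. Among all 21887 genes 5412 had none, so this count does not set the wider stellate genes apart. Gfap and Tagln still had a window peak in all 6 lists. Genes with a C/EBPα window peak in at least 1 list included Abcc9, Steap4, Tagln, Mmp2, Gata4 and Cxcl12. It was in all 4 lists at Steap4, Gata4 and Cxcl12, and the V5-Arid1a list had a peak at Gata4 and Cxcl12. Of the 26 genes, 26.9% had C/EBPα in any list, 11.5% in all 4 lists, and 7.69% had V5-Arid1a. Each share was below that of all genes, at 47.6%, 30.3% and 14.7%. Gata4 is a transcription factor and Cxcl12 a chemokine.

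Genes that act on collagens or on PDGF signalling were read as well. Of 12 genes that process collagen, 6, 9 and 7 had a gene-end or start peak in KO libraries 1, 2 and 3, and 6, 10 and 7 in WT libraries 1, 2 and 3. C/EBPα was found at 6 of them: the collagen prolyl hydroxylase genes P4ha1 and P4hb, the lysyl hydroxylase genes Plod1 and Plod3, and the procollagen protease genes Adamts2 and Bmp1. P4ha1, P4hb, Plod1 and Adamts2 had it in all 4 lists, and P4hb and Plod1 had a V5-Arid1a peak. The 6 of 12 and 4 of 12 are near the 47.6% and 30.3% of all genes with C/EBPα in any list and in all 4, and the V5-Arid1a share of all genes was 14.7%.

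Of 14 ligands, receptors and mediators of PDGF and TGFβ signalling, 11, 13 and 13 had a gene-end or start peak in KO libraries 1, 2 and 3, and 12, 13 and 12 in WT libraries 1, 2 and 3. C/EBPα was found at 10: the ligand genes Pdgfa, Pdgfc, Tgfb1 and Tgfb2, the receptor genes Tgfbr2 and Tgfbr3, and the mediators Smad2, Smad3, Smad4 and Smad7. It was in all 4 lists at Tgfb2, Tgfbr2, Tgfbr3, Smad2, Smad3 and Smad7, and a V5-Arid1a peak lay at Tgfbr2, Tgfbr3, Smad3 and Smad7. Over all genes the shares were 47.6% with C/EBPα in any list, 30.3% in all 4 lists and 14.7% with V5-Arid1a. For both PDGF receptor genes the V5-Arid1a count was 0.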

How the data were processed

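H3K4me2, C/EBPα and V5-Arid1a were mapped by ChIP-seq in 11 libraries of perfused mouse hepatocytes. The labels' protocols give another library kit and another sequencer for H3K4me2 than for C/EBPα and V5, so targets are compared only by overlap. The submitters' processing notes name HOMER, MACS2 2.0.10.20131216, Bowtie2 2.2.3, Picard and the build mm10, without roles. As deposited, C/EBPα and V5 peaks have positions only, and their numbering has gaps: 40.0% to 40.1% of the highest number is present, so part of an earlier list was kept by a step not given in the sources used here. Each deposited H3K4me2 broad peak has a fold, a score and −log10 p and q values from the authors' caller, which are that peak's own. The deposited −log10 q ranked peaks within a list, and the deposited fold and score were not used in a result. The sources used here give no read numbers: depth is unknown, and the number of peaks does not measure it. A gene without a peak is one where none was called or kept. Deletion of Arid1a cannot be checked in peak lists.

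Windows, gene ends and starts were intersected with the peaks (1 bp overlap) in Python 3.11.15 with numpy 2.4.6, pandas 2.3.3 and scipy 1.17.1, and figures were drawn with matplotlib 3.10.9. Genes came from RefSeq on GRCm38.p6, and 8 of the 10 marker genes had an entry in its promoter table. H3K4me2 peaks of the 6 lists that shared a base were merged into regions. Library values were compared by exact two-sided permutation tests, and the script was tested on simulated data. The labels do not say that replicates are separate animals, so the p-values measure the spread between samples. Same-numbered KO and WT libraries deviated together over 21887 genes (r = 0.652, 0.819 and 0.370), so the numbers were taken to pair the H3K4me2 libraries, from the data alone. KO 1 with WT 3 (r = 0.643) and KO 3 with WT 1 (r = 0.294) were nearly as high, so numbers 1 and 3 were hardly told apart. All 10 marker genes are named. From the 9 other lists, the rule was to name genes with a C/EBPα or V5-Arid1a peak, and wider stellate genes with no H3K4me2 gene-end peak. Outside this rule, Kupffer cell and leukocyte, endothelial and biliary genes with no H3K4me2 gene-end or start peak are named too. Some genes that this rule names are not reported here. The marker genes and lists were chosen with earlier results of these data known. Alternatives were peak strength, window, overlap, neighbouring genes and left-out libraries.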

Additional observations from a re-analysis of the deposited data

How the results depend on the processing

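No test of KO against WT passed 0.05 under any setting, nor could it at this number of libraries. Several differences changed sign with the peaks counted. With peaks at or above the pooled median −log10 q, KO minus WT was -1.33 windows with a peak, -0.246 percentage points of coverage and -0.0158 in the log2 relative coverage. With the same number of strongest peaks from each list it was -0.33 windows and -0.0224 percentage points. The log2 relative coverage kept its sign in that setting, at 0.334. KO list 3 kept 6 of its 72 window peaks at the pooled median and 9 with the same number of strongest peaks. Whether its weak peaks account for the changes of sign was not tested. C/EBPα peaks differed by 0.5 with only peaks of 395 bp (the pooled median width) or more, and by 0 without Reln, a setting chosen after seeing the data. Leaving out 1 library at a time gave -0.5 to 3 windows, 0.0890 to 1.96 percentage points, 0.11 to 1.08 in log2 relative coverage, -2.67 to 0.33 gene ends or starts, and -3.5 to -0.5 C/EBPα peaks. The number of windows marked in all lists was 1 at the pooled median and 2 to 5 with 1 library left out. With both libraries numbered 2 left out, also chosen after seeing the data, the differences were 0.5 windows, 1.51 percentage points and -1.5 gene ends or starts.

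With the replicate number as a block, differences were as before, at 0.667 windows (exact sign-flip p = 0.75), 0.947 percentage points (p = 1), 0.56 in log2 (p = 0.5), -1 gene ends or starts (p = 0.5) and -2 C/EBPα peaks (p = 0.5), and no call changed. The smallest p is then 0.25 with 3 pairs and 0.5 with 2. For C/EBPα the 2 pairs of libraries share only a number (r = 0.167).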

Other observations

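Over all protein-coding genes, 47.6% had a C/EBPα window peak in at least 1 list, 30.3% in all 4 lists, and 14.7% had a V5-Arid1a peak. Among the remaining lists, C/EBPα peaks were found in the windows of 9 of 12 endothelial genes: Pecam1, Kdr, Tie1, Stab1, Stab2, Lyve1, Flt1, Eng and Erg. They were in all 4 lists at Pecam1, Stab2, Lyve1, Flt1 and Erg, and V5-Arid1a peaks lay at Tie1 and Stab2. Of 12 Kupffer cell and leukocyte genes, Cd68, Ptprc and Spi1 had one, and so did the biliary genes Sox9 and Prom1. All 12 hepatocyte genes (Alb, Ttr, Apoa1, Apob, Cps1, Tat, Fgb, Hnf4a, Cebpa, Pck1, F2 and Trf) had C/EBPα in all 4 lists, and 11 of them, all but F2, had a V5-Arid1a peak. In genes of other tissues, Olig2 was the 1 of 12 regulators with a C/EBPα peak, and Ins2, Mbp, Actn3, Ckm, Sftpc and Prm1 were the 6 of 12 terminal genes, a share near that of all genes. None of the 12 regulators and none of the 12 terminal genes had a V5-Arid1a peak.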
